A study of Mus musculus with 4 samples.

Results

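The Eph receptors and their ephrin ligands were followed in hematopoietic stem cells sorted from NHD13 and wild-type (WT) mouse bone marrow. The genes described are 6 receptors (Epha3, Epha4, Epha7, Ephb2, Ephb4 and Ephb6) and 4 ligands (Efna1, Efna4, Efnb1 and Efnb2), 10 of 24016 gene symbols in the count tables and 10 of the 22 Eph and ephrin genes there. They were chosen by symbol with earlier results of these data known, and each was read from its transcript with the highest total over the 4 libraries. Their values in NHD13 against WT are therefore a description, and the adjusted p-values beside them say where each gene stood in the test of all genes.

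The NHD13 group had 2 libraries and the WT group had 2, all from C57BL/6 mice at 4 months of age. NHD13 mice carry a transgene that fuses NUP98 to the homeobox gene HOXD13, driven in blood cells by regulatory elements of the Vav gene, and serve as a model of myelodysplastic syndrome. All cells were sorted as lineage-negative, Sca-1 and c-Kit positive, CD34 and Flt3 negative and CD150 positive. Whether a group's 2 libraries are separate animals, pools or repeats is not stated in the labels, so every SD and p-value here covers the spread among 4 libraries, which may be technical.

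Eph receptors are the largest family of receptor tyrosine kinases, and they and their ligands both sit in cell membranes, so that signalling takes place where cells touch. Ephrin-A ligands are held by a lipid anchor and bind mainly EphA receptors. Ephrin-B ligands span the membrane, bind mainly EphB receptors and can signal back into the cell that carries them. The family is known for steering axons and sorting cells at tissue boundaries, and Ephb4 and Efnb2 mark venous and arterial endothelium. In blood, Eph and ephrin proteins have been linked to the adhesion and trafficking of progenitors.

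The 250 bases before the start of Epha3, the receptor with the greatest difference, are shown beside those of Efna1 and Ephb4, the ligand and receptor with the next smallest p-values. They are RefSeq sequences of build GRCm38.p6, written 5′ to 3′ on the gene's strand, with CpG dinucleotides in capitals.
Epha3, chr16:63864176-63864425, - strand: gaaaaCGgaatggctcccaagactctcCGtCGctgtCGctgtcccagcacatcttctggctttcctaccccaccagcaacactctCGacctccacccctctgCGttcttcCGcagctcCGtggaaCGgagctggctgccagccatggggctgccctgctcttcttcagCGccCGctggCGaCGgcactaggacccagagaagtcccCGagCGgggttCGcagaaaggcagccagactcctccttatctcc
Efna1, chr3:89280952-89281201, - strand: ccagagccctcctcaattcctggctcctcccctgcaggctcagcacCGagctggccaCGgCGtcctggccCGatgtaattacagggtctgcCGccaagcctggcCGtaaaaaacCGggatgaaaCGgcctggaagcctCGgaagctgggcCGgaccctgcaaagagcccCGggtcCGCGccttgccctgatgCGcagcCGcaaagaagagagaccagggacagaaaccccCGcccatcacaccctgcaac
Ephb4, chr5:137349859-137350108, + strand: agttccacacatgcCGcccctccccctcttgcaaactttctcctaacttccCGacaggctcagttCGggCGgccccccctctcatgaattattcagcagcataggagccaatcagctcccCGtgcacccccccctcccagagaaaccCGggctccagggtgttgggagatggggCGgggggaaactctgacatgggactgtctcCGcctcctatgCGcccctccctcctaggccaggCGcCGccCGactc
The Epha3 stretch held 16 CpG and was 62.8% G or C, that of Efna1 held 16 CpG at 64.8%, and that of Ephb4 held 12 CpG at 64.0%. Over all 27025 promoters of this length the medians were 6 CpG and 52.0% G or C. Among the 10 genes the range was 7 to 27 CpG and 54.4 to 76.8% G or C, so each of the 10 promoters lay above both medians.

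Epha3, which encodes a receptor of the A class, was close to absent in WT cells and abundant in NHD13 cells. It had 2300 and 4710 counts in the NHD13 libraries, against 11 and 2 counts in the WT libraries. As CPM, counts scaled to TMM-normalised library totals of equal size, these were 66.9 and 96.1 in NHD13 and 0.253 and 0.0547 in WT. Both NHD13 libraries stood far above both WT libraries. The fitted log2 fold change was 8.96 ± 0.49 (SE), with an adjusted p of 0.00674 by edgeR's quasi-likelihood test. The ratio of summed counts was 518 (95% interval 303 to 973, for counting error only). Among the 307 genes called higher in NHD13, Epha3 ranked 3 by fold change. It passed the filter on low counts only through the NHD13 libraries, so that a difference was a condition of its being tested. It was called by DESeq2 (adjusted p 1.65e-73) and limma-voom (0.0375) as well, and without either NHD13 library. Without WT library 1 its log2 fold change was 10.45 (adjusted p 0.0630) and without WT library 2 it was 8.32 (0.0722), in fits where edgeR called 0 of all genes, with 2332 and 2605 at an unadjusted p under 0.05, while DESeq2 and limma-voom were not run on 3 libraries. In these bulk libraries more cells with Epha3 and more Epha3 RNA per cell cannot be told apart.

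**Figure D1:**
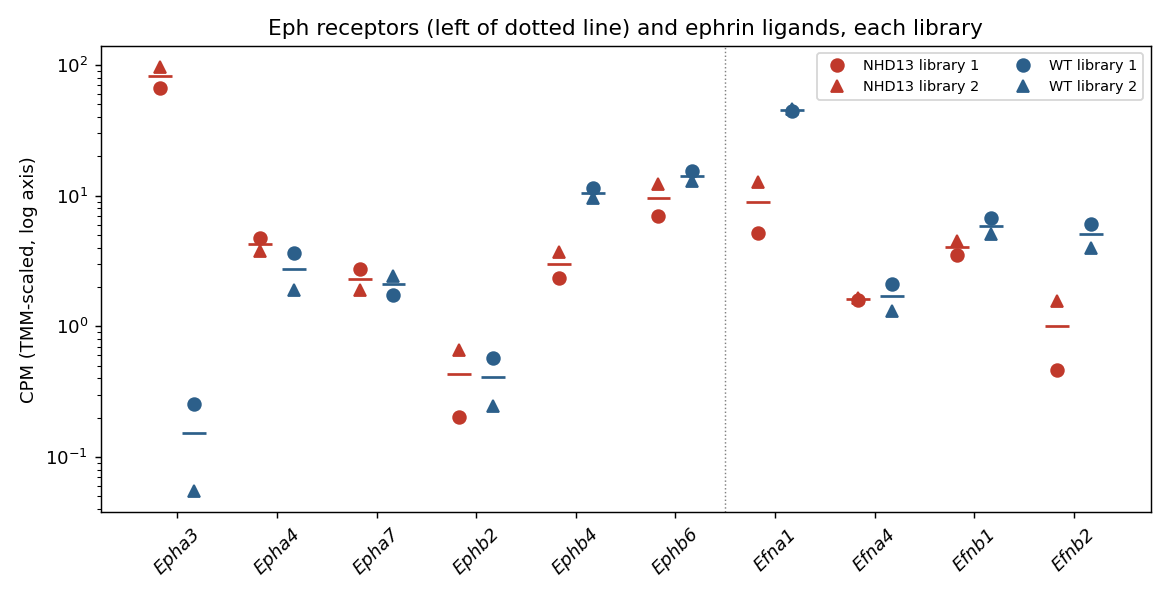
CPM of the 10 Eph and ephrin genes on a log axis, with 1 point per library and a short line at the group mean; NHD13 is red and WT blue. Epha3 lies at 66.9 and 96.1 CPM in NHD13 and below 1 CPM in WT, and Efna1, Efnb2 and Ephb4 lie lower in both NHD13 libraries than in either WT library.

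Of the 10 genes, 1 was called at an adjusted p under 0.05 by edgeR, against 4.28 percent of the 14853 genes tested. It was Epha3, called higher, as 2.07 percent of all genes were. None of the 10 was called lower by edgeR, as 2.22 percent of all genes were; 4 of the 10 had an unadjusted p under 0.05, beside 26.8 percent of all genes, and in 3 of these the fold change was below 0. DESeq2 called 4 of the 10, against 17.5 percent of all genes: Epha3 higher (8.2 percent of all genes) and Ephb4, Efna1 and Efnb2 lower (9.33 percent). Limma-voom called 3, against 4.17 percent of all genes: Epha3 higher (1.8 percent) and Ephb4 and Efna1 lower (2.37 percent). The groups did not overlap in CPM for 7 of the 10 genes, against 60.4 percent of all genes; 2 were higher in NHD13 (30.1 percent of all genes) and 5 lower (30.3 percent). The median log2 fold change of the 10 was -0.317, beside 0.00132 over all genes tested, and 4 of the 10 lay above 0.

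Epha4, an EphA receptor that also binds ephrin-B ligands, was at 4.77 and 3.80 CPM in NHD13 and 3.61 and 1.89 CPM in WT. Its log2 fold change of 0.64 ± 0.43 was not called (adjusted p 0.400 by edgeR), although both NHD13 libraries lay above both WT libraries. Epha7, another EphA receptor, was at 2.74 and 1.90 CPM in NHD13 and 1.75 and 2.44 CPM in WT, so that the groups overlapped. Its fold change of 0.15 ± 0.42 on the log2 scale lay within its error. A shorter Epha7 transcript had 49 and 61 counts in NHD13 and 33 and 45 in WT, against 94 and 93 in NHD13 and 76 and 89 in WT for the longer transcript used here.

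Ephb4 encodes the receptor of ephrin-B2 that is known from veins and is also found in blood progenitors. It was at 2.36 and 3.67 CPM in NHD13 and 11.5 and 9.55 CPM in WT, and each NHD13 library lay below each WT library. The log2 fold change was -1.80 ± 0.32 with an adjusted p of 0.0533, just outside the threshold. It was within it by DESeq2 (8.72e-05), by limma-voom (0.0491) and without NHD13 library 2 (0.0418). It was outside it without NHD13 library 1 (log2 fold change -1.51, adjusted p 0.112), WT library 1 (0.272) or WT library 2 (0.222). Ephb6 encodes a receptor whose kinase domain lacks activity and which is known from T cells. It had 7.04 and 12.3 CPM in NHD13 and 15.4 and 13.0 CPM in WT, with a log2 fold change of -0.55 ± 0.31 (adjusted p 0.323). Its NHD13 library 2 lay close to WT library 2. The summed CPM of 12 T and NK cell markers were 178 and 289 in NHD13 and 39.5 and 38.2 in WT. Of the 10 tested, 7 had a log2 fold change above 0, beside 50.1 percent of all genes. Nkg7, a granule protein of cytotoxic cells, made up 153 and 82.2 CPM of the NHD13 sums and 18.9 and 18.0 CPM of the WT sums. Of genes that define T cells, Cd3e was at 0.728 and 36.3 CPM in NHD13 and 0.713 and 0.493 CPM in WT. Cd3g, Cd5, Gzmb and Lck were likewise highest in NHD13 library 2, at 30.8, 9.51, 30.3 and 97.3 CPM there. Lck was at 17.5 CPM in NHD13 library 1 and 15.4 and 17.1 CPM in WT. Cd3d was at 0.407 and 0.633 CPM in NHD13 and 0.736 and 0.520 CPM in WT. Of the 10 tested markers, 3 had a log2 fold change below 0, Cd3d among them. The part of these markers in the Ephb6 value was not tested. Ephb2, a further EphB receptor, was at 0.204 and 0.653 CPM in NHD13 and 0.575 and 0.246 CPM in WT, which rest on 7 and 32 counts in NHD13 and 25 and 9 in WT. No difference was detectable at this depth (log2 fold change 0.07 ± 0.84).

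Efna1 encodes ephrin-A1, a ligand of EphA receptors first known as a gene induced by inflammatory signals in endothelium. It was at 5.18 and 12.8 CPM in NHD13 and 44.2 and 45.8 CPM in WT. The WT libraries agreed closely, while NHD13 library 1 lay well below NHD13 library 2, and both were below WT. The fitted log2 fold change was -2.32 ± 0.44, with an adjusted p of 0.0584 by edgeR's quasi-likelihood test. DESeq2 (3.86e-07) and limma-voom (0.0444) called it lower. It was also called lower without NHD13 library 1 (log2 fold change -1.81, adjusted p 0.0333) or without NHD13 library 2 (-3.11, 0.0167), and had an adjusted p of 0.260 without WT library 1 and 0.232 without WT library 2. A second Efna1 transcript had 175 and 607 counts in NHD13 and 1889 and 1634 in WT, close to the 178 and 625 in NHD13 and 1923 and 1675 in WT of the one used.

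Efna4 encodes ephrin-A4, a ligand known from lymphocytes. At 1.60 and 1.63 CPM in NHD13 and 2.12 and 1.31 CPM in WT its groups overlapped, and the log2 fold change was -0.09 ± 0.44. Efnb2, the ligand known from arteries, was at 0.466 and 1.55 CPM in NHD13 and 6.12 and 4.00 CPM in WT, and the groups did not overlap. Its log2 fold change was -2.31 ± 0.66 with an adjusted p of 0.114 by edgeR, 0.0115 by DESeq2 and 0.0972 by limma-voom. It was -1.69 without NHD13 library 1 and -3.43 without NHD13 library 2. As for Efna1, NHD13 library 1 was the lowest of the 4. Efnb1, the X-linked ephrin-B ligand, was at 3.52 and 4.53 CPM in NHD13 and 6.71 and 5.06 CPM in WT. Its log2 fold change was -0.55 ± 0.31 (adjusted p 0.319).

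**Figure D2:**
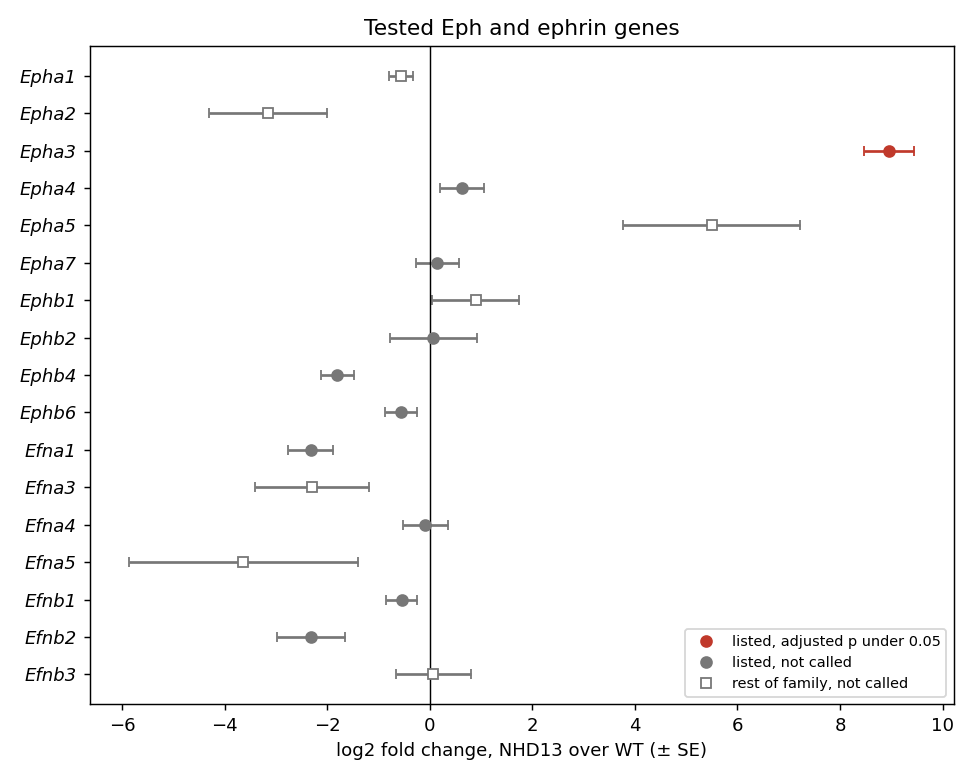
Log2 fold change of NHD13 over WT with its SE for the 17 Eph and ephrin genes that passed the filter on low counts; circles are the 10 genes described, open squares the rest of the family, and red marks an adjusted p under 0.05. Epha3 at 8.96 is the 1 gene called, and Efna1 at -2.32, Efnb2 at -2.31 and Ephb4 at -1.80 lie more than 2 SE below 0. So do Epha2 at -3.15, Efna3 at -2.30 and Epha1 at -0.56 in the rest of the family, while Epha5 at 5.50 lies more than 2 SE above 0.

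Cell type markers, those of stem cells among them, also differed between the groups, beside Efna1, Efnb2 and Ephb4. The summed CPM of 15 endothelium markers were 389.9 and 722 in NHD13 and 945 and 918 in WT. As for Efna1, NHD13 library 1 was lowest. Much of that sum came from Tek, Eng, Vwf and Esam, which stem cells express too; Esam was at 27.0 and 66.3 CPM in NHD13 and 210 and 214 CPM in WT. Of the 14 markers tested, 11 had a log2 fold change below 0, beside 50.1 percent of all genes above 0. For 9 of these both NHD13 libraries lay below both WT libraries, as for 30.3 percent of all genes. For 2 markers both NHD13 libraries lay above both WT libraries, as for 30.1 percent of all genes. Pecam1 was at 81.1 and 97.8 CPM in NHD13 and 67.5 and 78.4 CPM in WT. Plvap was at 3.03 and 1.90 CPM in NHD13 and 1.31 and 0.465 CPM in WT. Nrp1 had a log2 fold change of 1.58, with groups that overlapped. Among the listed markers that were lower, Cldn5 was at 0.582 and 1.78 CPM in NHD13 and 9.66 and 5.69 CPM in WT. Kdr was at 1.95 and 6.53 CPM in NHD13 and 11.6 and 13.1 CPM in WT, and Emcn at 10.1 and 23.9 CPM in NHD13 and 54.7 and 56.2 CPM in WT. Cdh5 was below 1 CPM in each library, and Sox17 had no count in any. The 10 stem cell markers summed to 2266 and 2708 CPM in NHD13 and 4035 and 4208 CPM in WT, although Kit was at 991 and 1122 CPM in NHD13 and 1130 and 1271 CPM in WT. The 8 late neutrophil markers summed to 2752 and 361 CPM in NHD13, against 317 and 273 CPM in WT. The 6 mast cell and basophil markers summed to 204 and 142 CPM in NHD13, against 43.7 and 30.5 CPM in WT. Of these 6, 3 had a log2 fold change above 0, beside 50.1 percent of all genes, and 3 below. Ms4a2 was at 111 and 4.45 CPM in NHD13 and 0.621 and 1.07 CPM in WT. Cpa3 was at 21.3 and 107 CPM in NHD13 and 3.98 and 3.09 CPM in WT. Fcer1a went the other way, at 0 and 0.0204 CPM in NHD13 and 0.920 and 1.70 CPM in WT. The part of any of these marker groups in the Eph and ephrin values was not tested.

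Levels of different genes were compared per kilobase of transcript. In NHD13 the highest of the 22 family genes was Epha3 at 14.4 ± 3.64 CPM per kb (SD, n = 2), followed by Efna1 at 6.06 ± 3.62, Ephb6 at 2.57 ± 0.98, Epha1 at 2.18 ± 0.39 and Efnb1 at 1.24 ± 0.22. Epha3 lay above Efna1 in both libraries, while Ephb6 and Epha1 did not differ beyond their spread. In WT the order began with Efna1 at 30.4 ± 0.78 CPM per kb, followed by Ephb6 at 3.77 ± 0.46, Epha1 at 3.21 ± 0.15, Ephb4 at 2.42 ± 0.32 and Efnb1 at 1.81 ± 0.36, and Epha3 ranked 18 at 0.0272 ± 0.0247. The levels of these first 5 did not overlap between neighbours in the WT order. Efnb1 and Epha2, which came next, did overlap.

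Summed by class, EphA receptors reached 16.8 and 21.1 CPM per kb in NHD13 and 6.43 and 4.11 in WT. Without Epha3 the EphA sum was 4.96 and 4.09 CPM per kb in NHD13 and 6.39 and 4.10 in WT, and the groups overlapped. EphB receptors summed to 2.48 and 4.30 CPM per kb in NHD13 and 6.88 and 5.74 in WT. Ephrin-A ligands summed to 4.59 and 9.92 CPM per kb in NHD13 and 33.8 and 32.0 in WT, and ephrin-B ligands to 1.23 and 1.80 in NHD13 and 3.42 and 2.44 in WT. In both NHD13 libraries the EphA sum exceeded the ephrin-A sum, and in both WT libraries it was the other way round. Of all counts on Eph receptor genes, Epha3 took 64.3% (Wilson 95% interval 62.7 to 65.9) and 73.6% (72.5 to 74.6) in NHD13, against 0.475% (0.266 to 0.849) and 0.141% (0.0386 to 0.511) in WT. Of all ephrin counts, Efna1 took 46.4% (41.4 to 51.4) and 59.1% (56.1 to 62.0) in NHD13 and 64.9% (63.2 to 66.6) and 80.7% (79.0 to 82.4) in WT. These intervals cover counting error only.

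**Figure D3:**
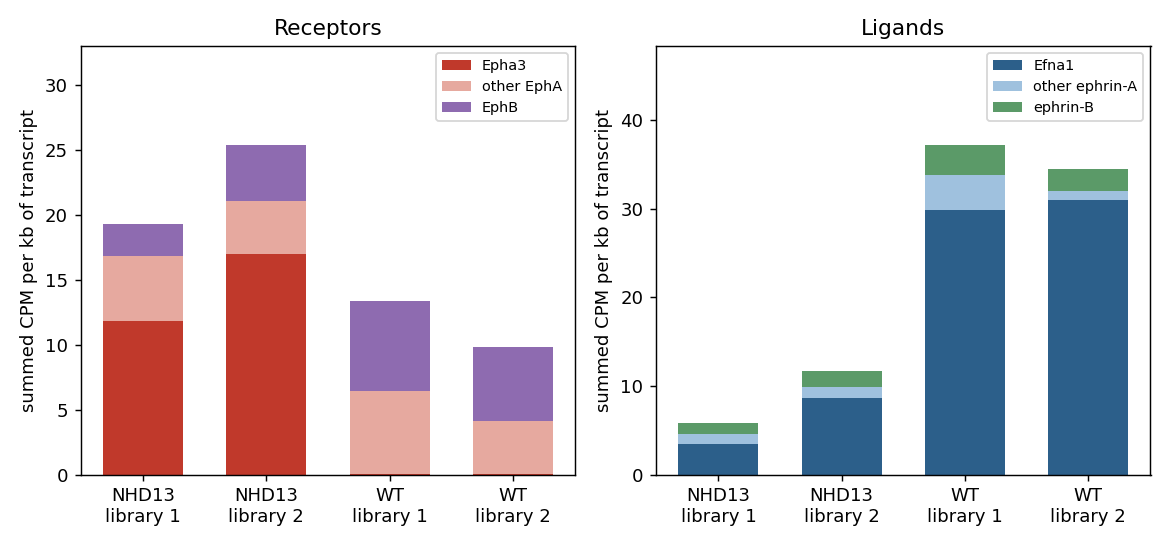
Summed CPM per kb of transcript for Eph receptors (left) and ephrin ligands (right) in each library, stacked by class with Epha3 and Efna1 apart. Epha3 makes up most of the receptor bar in both NHD13 libraries and is not visible in WT, and the Efna1 part is tallest in both WT libraries.

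The other 12 Eph and ephrin genes of the mouse were mostly low. Of these, 7 passed the filter and none was called by edgeR, beside 4.28 percent of all genes, while 2 had an unadjusted p under 0.05, beside 26.8 percent. DESeq2 called 1 of the 7, Epha2, lower, beside 9.33 percent of all genes lower and 17.5 percent in either direction. Limma-voom called 0, beside 4.17 percent of all genes. Epha5, another EphA receptor, had 453 and 60 counts in NHD13 and 13 and 0 counts in WT. Its log2 fold change of 5.50 ± 1.73 was not called (adjusted p 0.132), and NHD13 library 1 stood far above the other 3 libraries. Without that library the log2 fold change was 3.0, and without WT library 1 it was 11.17, where the remaining WT library had 0 counts and the value is no bound. Like Epha3 it passed the filter through the NHD13 libraries. Epha6 was too low to be tested, with 6 and 58 counts in NHD13 and 1 and 0 in WT. The ratio of summed counts was 61.4 (95% counting interval 10.6 to 2460). Epha1, at 6.23 and 8.04 CPM in NHD13 and 10.9 and 10.2 CPM in WT, had a log2 fold change of -0.56 ± 0.23.

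A further set stood high in WT library 1 alone. Efna5 had 2 and 20 counts in NHD13 and 264 and 0 counts in WT. Efna3 was at 0.175 and 0.367 CPM in NHD13 and 2.41 and 0.301 CPM in WT. Epha2, a receptor of ephrin-A1 known from epithelia, was at 0.204 and 0.878 CPM in NHD13 and 8.51 and 1.31 CPM in WT. Without WT library 1 the log2 fold change was 6.28 for Efna5, -0.14 for Efna3 and -1.26 for Epha2, against -3.64, -2.30 and -3.15 with all 4 libraries. For Efna5 the remaining WT library had 0 counts, so that 6.28 is no bound. The summed CPM of 12 stroma markers were 37.9 and 39.8 in NHD13 and 86.5 and 21.2 in WT. Of the 8 tested, 5 had a log2 fold change below 0, beside 50.1 percent of all genes above 0. Sparc was at 0.407 and 2.08 CPM in NHD13 and 35.6 and 0.602 CPM in WT. Pdgfrb, which made up most of the NHD13 sums, went the other way, at 32.9 and 22.7 CPM in NHD13 and 10.4 and 5.58 CPM in WT. Their part in these values was not tested. Ephb1 (0.90 ± 0.85) and Efnb3 (0.07 ± 0.74) had log2 fold changes with errors of their own size or more, and Epha8, Epha10, Ephb3 and Efna2 had at most 16 counts in all.

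Proteins that carry Eph and ephrin signals were examined as a list of 58 genes. Of 55 tested, 2 were called higher and 3 lower by edgeR, beside 2.07 and 2.22 percent of all genes. A log2 fold change above 0 was found in 29 of them, beside 50.1 percent of all genes, and the median was 0.067, beside 0.00132. Fyn and Src, kinases of the Src family that act at activated Eph receptors, went opposite ways. Fyn rose to 27.4 and 28.3 CPM in NHD13, against 14.4 and 12.6 CPM in WT (log2 fold change 1.05 ± 0.15, adjusted p 0.0373). Src fell to 0.233 and 0.204 CPM in NHD13, against 2.35 and 2.22 CPM in WT (-3.37 ± 0.48, adjusted p 0.0380). Its NHD13 values rest on 8 and 10 counts. Src passed the filter on low counts only through the WT libraries, so that a difference was a condition of its being tested. The adaptor gene Grb2 rose to 46.2 and 42.8 CPM in NHD13, against 24.9 and 26.7 CPM in WT (0.78 ± 0.12). Itsn1, which encodes an exchange factor for Cdc42 that binds EphB receptors, fell to 7.36 and 13.8 CPM in NHD13, against 103 and 103 CPM in WT (-3.28 ± 0.32, adjusted p 0.0193). Pik3r1, the regulatory subunit of PI3 kinase, fell to 127 and 136 CPM in NHD13, against 305 and 295 CPM in WT (-1.19 ± 0.09, adjusted p 0.0123). The groups did not overlap for any of these 5 genes, as for 60.4 percent of all genes. These 5 were named because edgeR called them on the same libraries, so the lack of overlap is no further support. Among the 55 tested partners, 19 were higher and 15 lower without overlap, beside 30.1 and 30.3 percent of all genes. With each library left out in turn, log2 fold changes ran from 0.96 to 1.13 for Fyn and -3.45 to -3.27 for Src. They ran from 0.73 to 0.84 for Grb2, -3.8 to -2.89 for Itsn1 and -1.23 to -1.13 for Pik3r1. The calls in the list changed with the library left out, as did those of all genes.

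Of 35 genes of the other guidance families (semaphorins, plexins, neuropilins, Slits, Robos, netrins and their receptors), 30 were tested, 2 called higher and 1 lower, beside 2.07 and 2.22 percent of all genes. The median log2 fold change was -0.995 and 11 lay above 0, beside a median of 0.00132 and 50.1 percent above 0 over all genes. The semaphorin genes Sema4a and Sema4d, whose membrane proteins are known from immune cells, rose. Sema4a was at 15.9 and 13.9 CPM in NHD13 and 3.20 and 2.13 CPM in WT (log2 fold change 2.48 ± 0.29, adjusted p 0.0276). Sema4d was at 77.1 and 73.4 CPM in NHD13 and 48.2 and 45.3 CPM in WT (0.69 ± 0.10). Robo1, a receptor of Slit proteins, fell to 0.407 and 0.612 CPM in NHD13, against 3.89 and 5.01 CPM in WT (-3.11 ± 0.43, adjusted p 0.0368). With each library left out in turn, log2 fold changes ran from 2.22 to 2.8 for Sema4a and 0.64 to 0.73 for Sema4d. For Robo1 they ran from -3.43 to -2.85. The calls among these guidance genes changed with the library left out.

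**Figure D4:**
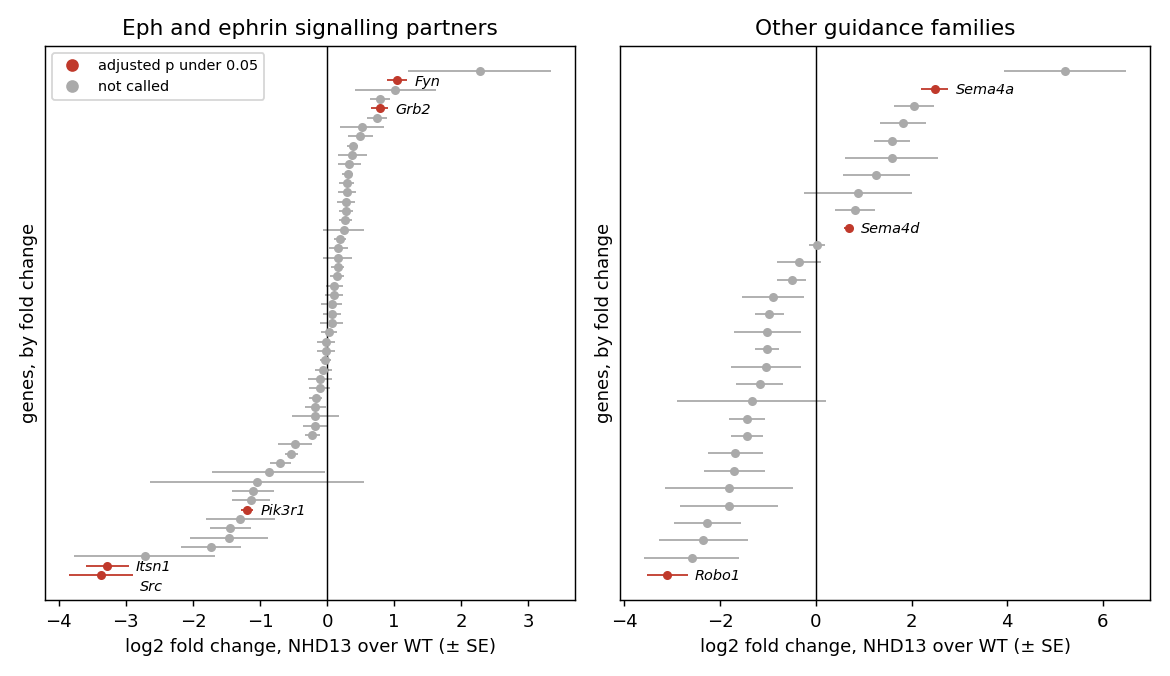
Log2 fold change of NHD13 over WT with its SE for 55 tested signalling partners of Eph and ephrin proteins (left) and 30 tested genes of other guidance families (right), sorted by fold change; named red points have an adjusted p under 0.05. The 5 called partners lie on both sides of 0, as do Sema4a, Sema4d and Robo1.

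Genome neighbours of the 10 genes were then read from the same fit. They were the nearest protein-coding genes in RefSeq (GRCm38.p6) on each side that are in the count tables. Of 18 neighbours outside the family 12 were tested and none was called by edgeR, beside 4.28 percent of all genes, while 5 had an unadjusted p under 0.05, beside 26.8 percent. DESeq2 called 2 of them, beside 17.5 percent of all genes, and limma-voom 0. Pros1, the gene for protein S, lies 614 kb from Epha3 on one side. It was at 27.9 and 19.8 CPM in NHD13 and 65.5 and 46.7 CPM in WT (log2 fold change -1.24 ± 0.25), the opposite direction to Epha3. Csnka2ip, 614 kb away on the other side, had no count in any library. Slc50a1, a sugar transporter gene 1.14 kb from Efna1, was at 122 and 121 CPM in NHD13 and 153 and 159 CPM in WT (-0.36 ± 0.09). Efna1, Efna3 and Efna4 follow each other on chromosome 3. Their log2 fold changes were -2.32, -2.30 and -0.09, and of the 3 only Efna1 had groups that did not overlap.

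The promoter stretches were searched on both strands for short motifs. The HOX and PBX composite TGATNNAT was found in 0 of the 10, against 7.91% of all promoters, and the HOXD13-type motif CAATAAA in 0 of 10, against 4.42%. The GATA motif AGATAA was found in 2, Epha3 and Efna4, against 10.3% of all promoters. In Epha3 it reads ttatct on the gene's strand and begins 8 bases before the start. The RUNX motif TGTGGT was found in Efna4 (14.2% of all promoters), the TATA motif TATAAA in Efnb2 (13.0%) and the E-box CACGTG in none (6.05%). A match is a description of letters, and a lack of one says only that they are not in this window.

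The genes whose pattern over the 4 libraries was most like that of Epha3 were found by the root mean square distance of centred log2 CPM. The nearest was Hoxc8, a homeobox gene, at a distance of 0.38. It had 40.3 and 34.9 CPM in NHD13 and 0.138 and 0.0274 CPM in WT. Hoxc4 (0.887), Mab21l2 (0.892), Hoxc5 (0.934), Chga (1.03) and Khdrbs2 (1.05) followed. Like Epha3, each was at or near 0 in both WT libraries, and the likeness rests on 4 libraries in 2 groups.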

How the data were processed

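Libraries were made from RNA of the sorted cells with the SMARTer Ultra Low kit and read as pairs on a HiSeq, per the labels' protocols. The submitters' processing notes name Bowtie 0.12.2 and the mouse build mm9. How reads were counted, whether by strand and with what rule for multiple alignments, is not given in the sources used here. Reads of overlapping or antisense genes may therefore be shared. The authors deposited raw counts for 33018 RefSeq transcripts per library, without scaling. With 1 transcript per symbol the libraries held 35025974 and 48423689 counts in NHD13 and 42664018 and 37070939 in WT, and a difference in a gene of few counts is limited by that depth.

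For each symbol the transcript of highest total count over the 4 libraries was kept. Epha7, Ephb2, Ephb4, Ephb6 and Efna5 had tied transcripts with identical counts, and the first in file order was used. NHD13 was tested against WT by the robust quasi-likelihood test of edgeR 4.0.16 (R 4.3.3) on all 4 libraries, with its default filter on low counts, TMM scaling and Benjamini-Hochberg adjustment over 14853 genes. Called means an adjusted p under 0.05. The script was tested on simulated counts. The standard error is the log2 fold change divided by the square root of F. Levels per kilobase used lengths of GENCODE M21 transcripts matched by RefSeq accession, the longest among tied transcripts, for all 22 family genes; 98.3 percent of tested genes had a match. The tied Ephb2 transcripts differ in length by more than 2 times, which moves its level per kilobase.

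The 10 genes and all lists were chosen with earlier results of these data known. Named genes were the 10, every other family gene that passed the filter, called genes of the partner and guidance lists, and the 6 genes nearest to Epha3 whose average log2 CPM was 1 or more. Cell type markers named singly and untested family genes were chosen after their values were seen, and so were the neighbours shown, out of a set fixed by position. DESeq2 1.42.0, limma-voom (limma 3.58.1), other scalings and filters, a non-robust fit, summed transcripts, a replicate block and leaving out each library were the alternatives.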

Additional observations from a re-analysis of the deposited data

How the results depend on the processing

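Epha3 kept its direction under all alternatives run and its call under all but those without WT library 1 or WT library 2. The count of all genes called (636) was 1138 with no filter, 1066 at 1 CPM or more in both libraries of a group, 2604 by DESeq2, 107 with the replicate block and 402 with summed transcripts, and 0 to 990 when a library was left out. Of the 10 genes described, 1 was called in the main test, 2 with no filter, 3 at 1 CPM, 4 by DESeq2 and 3 by limma-voom. Of the other family genes, 0 were called in the main test (2 at an unadjusted p under 0.05 by edgeR, 1 called by DESeq2 and 0 by limma-voom). Of the signalling partners, 5 were called in the main test, 8 at 1 CPM, 15 by DESeq2 and 1 with the replicate block. Of the other guidance genes, 3 were called in the main test, 10 by DESeq2, 0 with the replicate block (12 at an unadjusted p under 0.05) and 0 to 6 when a library was left out. Of all genes tested, 4.28 percent were called in the main test, 5.47 with no filter, 8.24 at 1 CPM, 17.5 by DESeq2 and 4.17 by limma-voom. With the replicate block it was 0.72 percent. The cause of the shifts between settings was not tested.

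The replicate numbers were not shown to pair the libraries, as the deviations of same-numbered libraries from their group means correlated at -0.206 over 14853 genes. As a pairing, the numbers were used only in the fits with a replicate block, as given or crossed. With the numbers crossed, a pairing chosen after seeing the data, 2 of the 10 genes, 1 other family gene, 3 partners and 3 guidance genes were called, of 647 in all.

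Direction reversed only for genes whose main value was not called. Ephb2 was at -0.02 with the replicate block and -0.01 with it crossed. With each library left out in turn, log2 fold changes ran from -0.13 to 0.41 for Epha7, -1.0 to 0.80 for Ephb2, -0.39 to 0.29 for Efna4, -5.62 to 6.28 for Efna5 and -0.33 to 0.49 for Efnb3. The upper value for Efna5 comes from a fit whose remaining WT library had 0 counts, and is no bound. Among tested family genes depth limits Ephb2, Efnb3 and Ephb1 most, with 73, 38 and 47 counts in all; the 5 family genes left out by the filter had 3 to 65.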
